A study of Mus musculus with 6 samples.

Results

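B cell identity genes were measured by bulk RNA-sequencing of whole lung. They are the 9 genes Cd79a, Cd79b, Ms4a1, Pax5, Cd22, Blk, Fcrla, Fcmr and Bank1, named by their symbols among the 49568 gene symbols of the count table. TNF+ mice (genotype TNF-Tg) overexpress a copy of the human TNF gene and develop inflammatory-erosive arthritis and pulmonary hypertension. TNF- mice (genotype WT) are their littermates without the transgene. Lungs of 3 TNF+ and 3 TNF- female mice, all 4 months old and bred on the same C57BL/6 background, were sequenced as a separate library per mouse. The transgene is human, so this table of mouse genes does not measure it directly. No cell was sorted. In whole lung, more B cells and more RNA per B cell cannot be told apart.

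B cells recognize antigen through the B cell receptor, an immunoglobulin that sits in the membrane and signals through its partner chains CD79a and CD79b. The transcription factor Pax5 sets the B cell program and keeps other lineage programs off, and it is shut down again when a B cell turns into an antibody-secreting plasma cell. In chronically inflamed lung, B cells are known to collect around airways and vessels in lymphoid aggregates.

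RefSeq promoter windows of build GRCm38.p6, from 250 bases before to 50 bases after the annotated start, were matched to 6 of the 9 genes. Cd79b, Ms4a1 and Blk had no entry in that table. RefSeq starts can differ from the GENCODE gene positions given with the values below. The Cd22 window lies wholly inside the GENCODE gene, and that of Pax5, not shown, lies wholly before the start of its gene. The windows of Cd79a and Fcmr reach further into the gene than 50 bases, and that of Bank1 has the same start in both. The windows of Cd79a and Cd22, which were higher in TNF+ lungs, are shown beside those of Fcmr and Bank1, which were not called, so that the sequence can be read next to the values. Capitals mark the matches, on either strand, to CCCNNGGG (the core that EBF1 recognizes), GAGGAA (the core that PU.1 recognizes) and CAGGTG (an E-box).
Cd79a, chr7:24897247-24897546, plus strand: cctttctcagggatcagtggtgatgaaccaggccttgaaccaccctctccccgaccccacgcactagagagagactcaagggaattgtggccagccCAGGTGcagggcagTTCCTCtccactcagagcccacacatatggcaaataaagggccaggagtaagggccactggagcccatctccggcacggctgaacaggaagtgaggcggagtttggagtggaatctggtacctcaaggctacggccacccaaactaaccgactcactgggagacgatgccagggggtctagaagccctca
Cd22, chr7:30878979-30879278, minus strand: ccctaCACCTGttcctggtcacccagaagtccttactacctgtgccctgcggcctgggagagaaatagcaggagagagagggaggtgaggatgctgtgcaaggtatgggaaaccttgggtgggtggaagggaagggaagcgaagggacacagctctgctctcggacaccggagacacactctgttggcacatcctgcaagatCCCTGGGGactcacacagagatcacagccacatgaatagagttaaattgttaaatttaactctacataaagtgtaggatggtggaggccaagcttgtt
Fcmr, chr1:130865527-130865826, plus strand: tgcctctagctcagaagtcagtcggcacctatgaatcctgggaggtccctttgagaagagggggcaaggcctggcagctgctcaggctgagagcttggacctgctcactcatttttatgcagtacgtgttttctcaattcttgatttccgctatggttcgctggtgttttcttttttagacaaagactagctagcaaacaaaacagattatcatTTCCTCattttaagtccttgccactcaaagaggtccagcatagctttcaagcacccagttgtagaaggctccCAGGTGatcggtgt
Bank1, chr3:136326017-136326316, minus strand: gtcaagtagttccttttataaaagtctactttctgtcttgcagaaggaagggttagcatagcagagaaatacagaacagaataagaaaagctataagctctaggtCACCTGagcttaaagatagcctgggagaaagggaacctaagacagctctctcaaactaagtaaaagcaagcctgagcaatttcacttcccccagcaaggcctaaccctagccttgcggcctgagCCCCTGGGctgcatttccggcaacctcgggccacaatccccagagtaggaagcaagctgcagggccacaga

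The E-box lay in the windows of 5 of the 6 genes, all but Pax5, where 20.2% of all 32851 promoter windows hold it. The PU.1 core lay in 3 of the 6 (Fcmr, Fcrla and Cd79a), where 28.3% of all windows hold it. The EBF1 core lay in 2 of the 6 (Bank1 and Cd22), where 13.7% of all windows hold it. A looser NF-kB-like motif (GGG and CC with any 5 bases between) lay in 4 of the 6 (Fcmr, Bank1, Pax5 and Cd79a) and in 50.8% of all windows. In the Cd79a window it overlapped the PU.1 core. The octamer ATGCAAAT was found in 0 of the 6 windows and in 1.74% of all windows. Genes that rose and genes that were not called both held the E-box, the PU.1 core and the EBF1 core, and a match of letters is not evidence that a factor binds there.

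Total counts per lung were 25396923 to 32529408, so that 3 counts, taken as the smallest detectable number, correspond to 0.0922 to 0.118 CPM, and this floor covers counting error only. No member had fewer than 157 counts in a lung. Both lungs of replicate number 1 stood apart from the rest. In TNF+ replicate 1, 5.22% of the counts lay on Gm42418, against 0.0774% to 0.274% in the other lungs. TNF- replicate 1 carried 56570 counts of Krt4 and 45433 of Krt13, keratins of squamous epithelium, against at most 8 of either in each other lung. Acta1, an actin of skeletal muscle, had 23582 normalized counts there, against 68.3 to 408.8 in the other lungs. Lung genes were abundant in all 6 lungs, with the surfactant gene Sftpc between 287100 and 514550 normalized counts. Of 8 genes of lung epithelium and endothelium, 7 were lower in TNF+ lungs at an edgeR adjusted p under 0.05, with Scgb1a1 (log2 fold change -1.77), Cldn5 (-1.54) and Foxj1 (-1.50) lowest, and Sftpc did not pass (edgeR adjusted p = 0.0837). The mouse gene Tnf, which is not the transgene, had 106, 213 and 405 counts in TNF+ and 16, 14 and 35 in TNF- lungs.

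All 9 genes passed edgeR's filter on low counts. Of these, 5 were called higher in TNF+ lungs, where called means a Benjamini-Hochberg adjusted p under 0.05 among the 19199 genes that edgeR tested by quasi-likelihood. They were Fcrla, Cd22, Cd79a, Ms4a1 and Cd79b, and their fold changes ran from 1.67 to 2.31. Bank1, Pax5, Blk and Fcmr were not called, with fold changes from 1.00 to 1.30. Differential expression was widespread in these lungs, where 47.4% of the genes tested were called in either direction and 24.0% were called higher. None of the 9 was called lower (0 by edgeR, DESeq2 and limma-voom, and 0 at an unadjusted p under 0.05 in edgeR), where 23.4% of the genes tested were. The lowest TNF+ value exceeded the highest TNF- value in 5 of the 9 genes, as it did in 30.5% of the genes tested. The median log2 fold change of the 9 genes was 0.74 and that of all genes tested was 0.03. The 5 calls are near the background share for either direction.

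**Figure D1:**
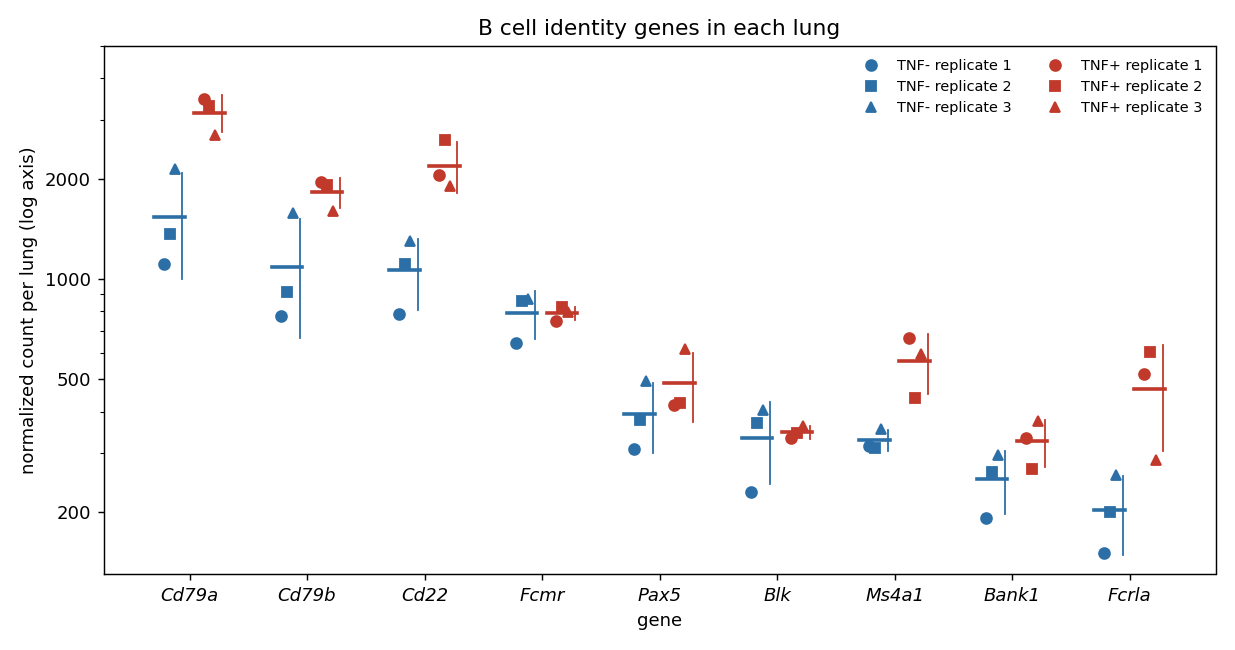
Normalized counts (log axis) of the 9 genes in each of the 6 lungs. Points are lungs, horizontal bars are group means and vertical bars are SD (n = 3). The TNF+ lungs sit above all TNF- lungs in Cd79a, Cd79b, Cd22, Ms4a1 and Fcrla, and the groups overlap in Fcmr, Pax5, Blk and Bank1.

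Both signalling chains of the receptor were called higher in TNF+ lungs. Values per lung are normalized counts, that is counts rescaled by TMM to a library of mean size. Cd79a (ENSMUSG00000003379.7, chromosome 7 of mm10, 24897381 to 24902197 on the plus strand) had 3466.5, 3290.6 and 2706.4 normalized counts in TNF+ lungs against 1105.6, 1365.7 and 2143.3 in TNF- lungs, replicates 1 to 3 in order. The lowest TNF+ lung exceeded the highest TNF- lung. The TNF+ mean of 3155 ± 398 (SD, n = 3) compared with a TNF- mean of 1538 ± 540 (SD, n = 3). Cd79a was thus higher by 1.04 on the log2 scale (standard error 0.23, edgeR adjusted p = 0.00692). Leaving out each lung in turn gave log2 fold changes of 0.82 to 1.35 with edgeR adjusted p-values up to 0.0329.

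Cd79b (ENSMUSG00000040592.11, chromosome 11, 106311341 to 106314762 on the minus strand), the partner of CD79a in the heterodimer, had 1948.8, 1913.1 and 1603.8 normalized counts in TNF+ lungs against 775.9, 916.2 and 1571.9 in TNF- lungs. The groups came close to each other, since TNF- replicate 3 almost reached TNF+ replicate 3. The log2 fold change was 0.74 (standard error 0.24, edgeR adjusted p = 0.0346), with a 95% confidence interval from 0.19 to 1.30. This call depended on single lungs. It was lost without TNF+ replicate 1 (edgeR adjusted p = 0.105), TNF+ replicate 2 (0.0911), TNF+ replicate 3 (0.0589), TNF- replicate 1 (0.0992) or TNF- replicate 2 (0.119), with log2 fold changes of 0.52 to 0.81 in those fits. Of the 6 fits with a lung left out, it held in that without TNF- replicate 3, where the log2 fold change was 1.10 (edgeR adjusted p = 0.000579).

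Cd22, Ms4a1 and Fcrla were called higher as well. Cd22 (ENSMUSG00000030577.14, chromosome 7, 30865402 to 30880342 on the minus strand) encodes an inhibitory lectin that damps receptor signals. It had 2054.3, 2615.3 and 1896.5 normalized counts in TNF+ lungs against 787.4, 1106.9 and 1297.4 in TNF- lungs. The groups were well apart. The rise in Cd22 was 1.04 on the log2 scale (standard error 0.19) and had the smallest edgeR adjusted p of the 9 genes (0.003). Cd22 kept this call in all 16 alternative analyses, with log2 fold changes from 0.84 to 1.20, as did Cd79a, with 0.73 to 1.35.

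Ms4a1 (ENSMUSG00000024673.9, chromosome 19, 11249675 to 11266241 on the minus strand) encodes CD20, the membrane protein targeted by B cell depleting antibodies. It had 666, 441 and 594 normalized counts in TNF+ lungs against 316, 311 and 355 in TNF- lungs. The TNF- lungs lay close together, and the spread was in the TNF+ lungs. The log2 fold change was 0.79 (standard error 0.17, edgeR adjusted p = 0.00559). The Ms4a1 call was lost when both replicate 1 lungs were left out together (log2 fold change 0.60, edgeR adjusted p = 0.0635).

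Fcrla (ENSMUSG00000038421.13, chromosome 1, 170917576 to 170927583 on the minus strand) encodes an Fc receptor-like protein that stays inside B cells. It had 517, 603 and 286 normalized counts in TNF+ lungs against 150, 200 and 258 in TNF- lungs. Its fold change was the largest of the 9 genes, at 2.31 (95% confidence interval 1.43 to 3.71, log2 fold change 1.21, standard error 0.30, edgeR adjusted p = 0.0113). Its TNF+ lungs were spread widely around their mean of 469 ± 164 (SD, n = 3), with TNF+ replicate 3 just above TNF- replicate 3. Leaving out both replicate 1 lungs together gave an edgeR adjusted p of 0.0746 for Fcrla, with a log2 fold change of 0.91.

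The transcription factor of the list did not pass the test. Pax5 (ENSMUSG00000014030.15, chromosome 4, 44524757 to 44710487 on the minus strand) had 419, 423 and 617 normalized counts in TNF+ lungs against 310, 379 and 495 in TNF- lungs. The groups overlapped, with TNF- replicate 3 above TNF+ replicates 1 and 2. The log2 fold change was 0.30 (standard error 0.22, edgeR adjusted p = 0.281), and its 95% confidence interval from -0.19 to 0.80 takes in both no change and a rise of 1.74-fold.

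The kinase, the adaptor and the IgM receptor did not pass it either. Bank1 (ENSMUSG00000037922.13, chromosome 3, 136053363 to 136326066 on the minus strand), a scaffold for signalling downstream of the receptor, had 332, 269 and 375 normalized counts in TNF+ lungs against 192, 264 and 297 in TNF- lungs. Bank1 was estimated 0.37 higher on the log2 scale (standard error 0.20, edgeR adjusted p = 0.159), with overlapping groups. Blk (ENSMUSG00000014453.4, chromosome 14, 63372836 to 63417037 on the minus strand), a Src family kinase, had 332, 344 and 362 normalized counts in the TNF+ lungs, which lay inside the TNF- range of 229, 369 and 403. The log2 fold change of Blk was 0.05 (95% confidence interval -0.42 to 0.53, edgeR adjusted p = 0.852), and its sign turned without TNF- replicate 1 (-0.18).

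Fcmr (ENSMUSG00000042474.6, chromosome 1, 130865669 to 130880791 on the plus strand) encodes the receptor for the Fc part of IgM. It had 749, 821 and 795 normalized counts in TNF+ lungs against 640, 857 and 869 in TNF- lungs. All TNF+ values lay within the TNF- range, and the means were 788 ± 36.5 (SD, n = 3) and 789 ± 129 (SD, n = 3). The 95% confidence interval of the Fcmr fold change ran from 0.81 to 1.24 (edgeR adjusted p = 0.998).

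**Figure D2:**
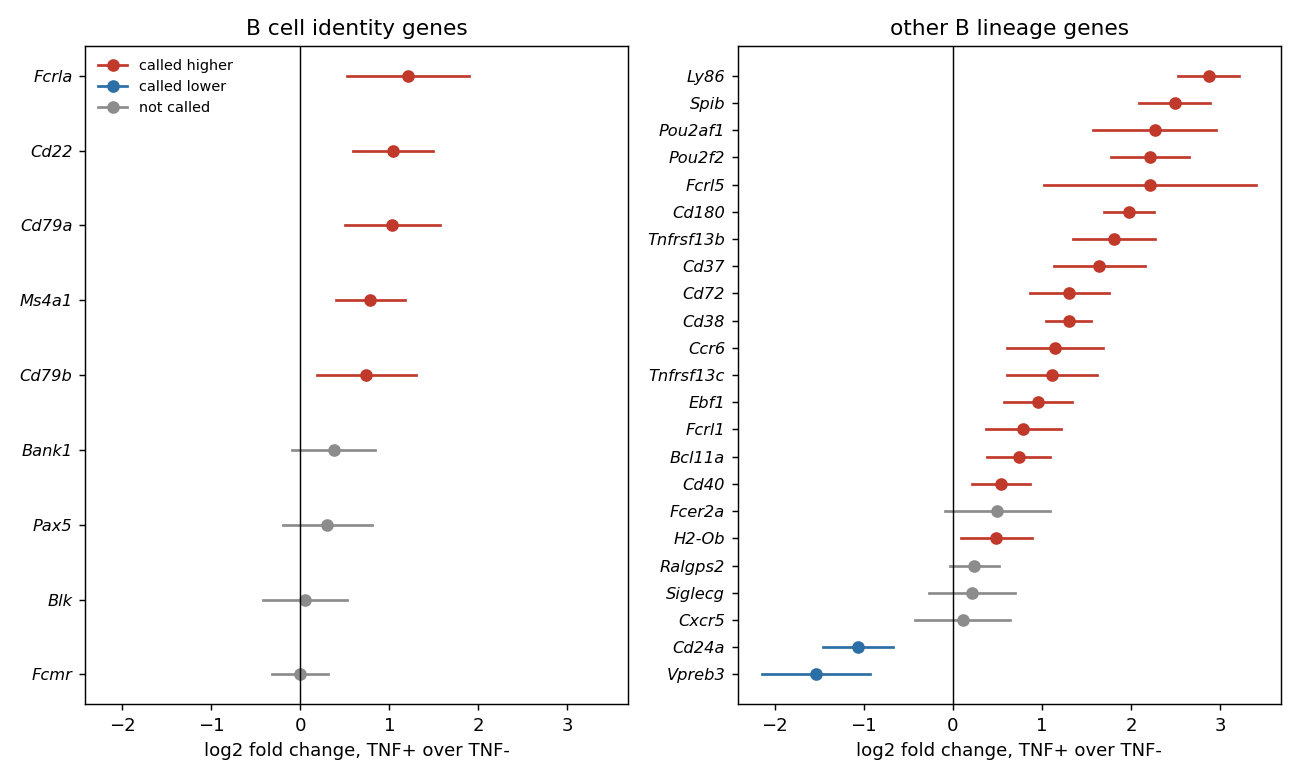
Log2 fold changes of TNF+ over TNF- lungs with 95% confidence intervals (horizontal lines) for the 9 B cell identity genes (left) and for other B lineage genes (right). Red is called higher, blue is called lower and grey is not called. Point estimates of the 9 genes run from 0.00 for Fcmr to 1.21 for Fcrla, and those of the other B lineage genes from -1.53 for Vpreb3 to 2.87 for Ly86.

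Since the point estimates of the genes differed, each was set against Cd79a within the same lung. A ratio within a lung does not depend on how the libraries were scaled, and it shows unequal change only. The count of Cd79b divided by that of Cd79a was 0.562, 0.581 and 0.593 in TNF+ lungs against 0.702, 0.671 and 0.733 in TNF- lungs. The ratio of Fcmr to Cd79a was 0.216, 0.249 and 0.294 against 0.579, 0.627 and 0.406. Both ratios were lower in every TNF+ lung than in every TNF- lung.

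On the log2 scale the ratio to Cd79a was lower in TNF+ lungs by -1.07 for Fcmr, -0.99 for Blk, -0.78 for Pax5, -0.70 for Bank1 and -0.28 for Cd79b. In these 5 genes all TNF+ lungs lay below all TNF- lungs (p = 0.1 by exact permutation, two-sided, which is as low as 3 lungs against 3 can go, with an adjusted p of 0.16 over the 8 ratios). No ratio could therefore reach a p of 0.05. The groups almost touched for Bank1, at -2.85 in replicate 3 of both genotypes, and for Pax5, at -2.13 in TNF+ replicate 3 against -2.11 in TNF- replicate 3. For Ms4a1 (difference -0.31, exact permutation p = 0.4, adjusted 0.533), Cd22 (-0.03, p = 0.7, adjusted 0.8) and Fcrla (0.09, p = 0.8, adjusted 0.8) the ratios to Cd79a overlapped between the genotypes.

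**Figure D3:**
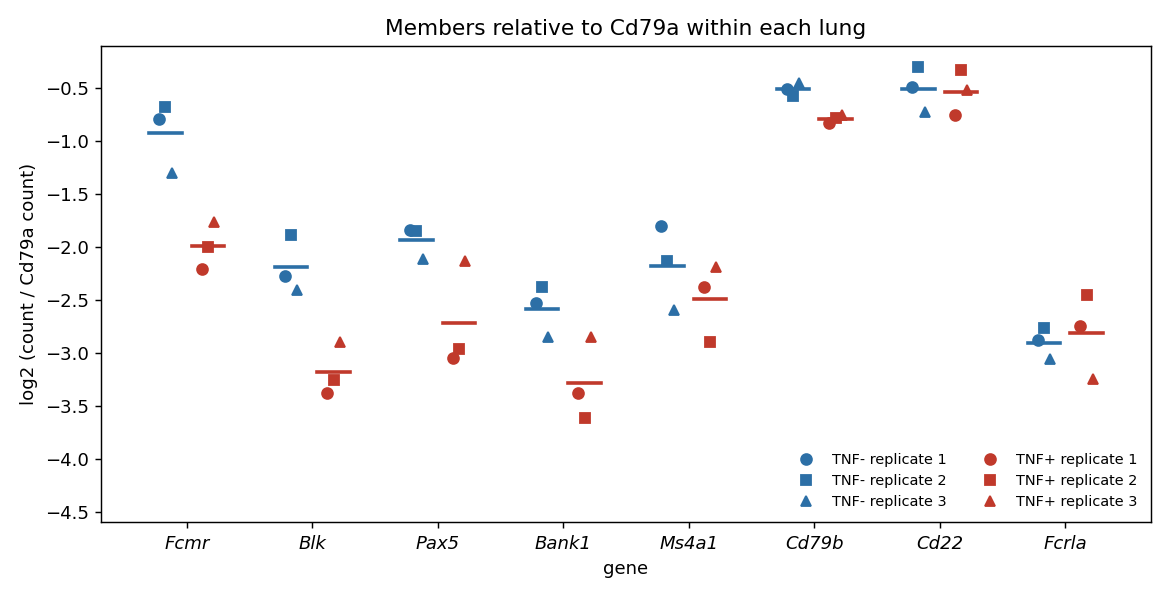
Log2 of the count of each of 8 genes over the count of Cd79a in the same lung. Points are lungs and horizontal bars are group means (n = 3). Fcmr, Blk, Pax5, Bank1 and Cd79b sit lower in every TNF+ lung, narrowly so for Bank1 and Pax5, and Ms4a1, Cd22 and Fcrla overlap.

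As a share of the 9 genes together, Cd79a and Cd22 were higher and Fcmr and Blk were lower in every TNF+ lung than in every TNF- lung. Shares within a lung depend on one another, so a gene that does not change loses share when others rise. A lower share is therefore not a fall of the gene. Cd79a held 33.1%, 30.7% and 29.3% of the summed normalized counts of the 9 genes in TNF+ lungs and 24.5%, 23.7% and 27.9% in TNF- lungs. Cd22 held 19.6%, 24.4% and 20.5% against 17.5%, 19.2% and 16.9%. Fcmr held 7.14%, 7.66% and 8.61% against 14.2%, 14.9% and 11.3%. Blk held 3.17% to 3.92% against 5.09% to 6.40%. The shares of the other genes with a lower ratio to Cd79a overlapped between the genotypes, at 17.4% to 18.6% against 15.9% to 20.4% for Cd79b, 3.95% to 6.68% against 6.44% to 6.87% for Pax5 and 2.51% to 4.06% against 3.86% to 4.57% for Bank1.

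Per kilobase of exon, Cd79a had the highest level in both genotypes, at 71.6 ± 9.04 (SD, n = 3) CPM per kilobase in TNF+ and 34.9 ± 12.3 (SD, n = 3) in TNF- lungs. Cd79b followed with a level of 42.1 and 25.2, then Fcmr with 15.02 and 15.03 and Cd22 with 14.4 and 6.98. Cd79a lay above Cd79b within each of the 6 lungs. Across lungs their ranges were apart in TNF+ (61.5 to 78.7 against 37.1 to 45.1) and overlapped in TNF- (25.1 to 48.7 against 17.9 to 36.3). Cd22 lay below Fcmr in every TNF- lung, at 5.17 to 8.51 against 12.2 to 16.6, and the ranges overlapped in TNF+ lungs, at 12.4 to 17.2 against 14.3 to 15.6. Fcrla and Blk overlapped in TNF- lungs, at means of 3.84 and 4.09, and were apart in TNF+ lungs, at 8.88 and 4.25.

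Ms4a1, Pax5 and Bank1 had the lowest levels per kilobase in both genotypes, at 3.03, 1.82 and 1.44 in TNF+ and 1.75, 1.47 and 1.11 in TNF- lungs. Pax5 overlapped Bank1 in both genotypes and Ms4a1 in TNF- lungs only. This order rests in part on the gene model. The level of Ms4a1 depends on it most, since its exons together span 6187 bases and its longest transcript 3075 bases. With the longest transcript as its length, its level was 6.10 in TNF+ and 3.53 in TNF- lungs. By the same length Bank1 lay above Pax5 in mean level, at 2.54 against 2.01 in TNF+ and 1.96 against 1.63 in TNF- lungs, and Cd22 above Fcmr in TNF+ lungs, at 18.2 against 16.3.

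The TNF- lungs differed among themselves in all 9 genes at once. TNF- replicate 3 had the highest value of its group in 9 of 9 genes, and TNF- replicate 1 had the lowest in 8 of 9, with Ms4a1 the exception. The sums over the 9 genes were 4507, 5769 and 7690 normalized counts in TNF- lungs, while TNF+ lungs had 10485, 10720 and 9236. TNF+ lungs had no such order, as each of them was highest in 3 of the 9 genes. TNF- replicate 1 is also the lung with the keratin counts, and the part of other tissue in its low B cell values was not tested. TNF- replicate 3 had 66 counts of Glycam1, a ligand made by high endothelial venules of lymph nodes, against 1 and 0 in TNF- replicates 1 and 2 and 67 to 115 in TNF+ lungs. The part of lymphoid tissue in its high B cell values was not tested. Without TNF- replicate 3 the same 5 of the 9 genes were called, with log2 fold changes of 0.85 to 1.41. Without TNF- replicate 1 the log2 fold changes were 0.82 for Cd79a, 0.84 for Cd22, 0.74 for Ms4a1 and 1.00 for Fcrla, each still called (edgeR adjusted p up to 0.0385). Without both replicate 1 lungs, 2 of the 9 genes were called (Cd79a and Cd22), with 2 lungs per group. In that fit 6064 of all genes were called, against 9096 with all lungs.

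Other genes of the B lineage, taken from a list of 24, moved over a wider range than the 9. All 24 were tested, 17 were called higher, 2 lower and 5 were not called, and their median log2 fold change was 1.04. Among those not called were Cxcr5 (0.11), Siglecg (0.21), Ralgps2 (0.24) and Fcer2a (0.50).

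The largest rises on the list were in Ly86 (log2 fold change 2.87), Spib (2.49) and Pou2af1 (2.27). Ly86 encodes the partner of CD180, and both are also known from macrophages and dendritic cells. Spib encodes a transcription factor shared with plasmacytoid dendritic cells. Pou2af1 encodes a coactivator of octamer-binding factors that plasma cells also use. Ebf1, which acts together with Pax5 early in the lineage, rose by a log2 fold change of 0.96 (edgeR adjusted p = 0.00207), although it is also expressed by stromal cells. The genes called lower were Cd24a (-1.06), which epithelium also expresses, and Vpreb3 (-1.53), known from immature B cells, at 391.6, 269.9 and 301.1 normalized counts in TNF+ and 717, 734 and 1326 in TNF- lungs.

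Of 20 genes that relay B cell receptor signals, 18 were called higher and 2 were not called, Nfatc1 among them, with a median log2 fold change of 1.05. Vav1, a guanine nucleotide exchange factor, rose by 2.13, the adaptor gene Blnk by 1.93 and the phosphatase gene Ptpn6 by 1.66. Many of these genes, among them Syk, Btk, Plcg2, Vav1 and Ptpn6, are also used by macrophages. Macrophage and monocyte genes were called higher in 8 of 8, among them Cd68 (3.33), Adgre1 (3.20) and Csf1r (2.66), with sums of 253410 to 281640 normalized counts in TNF+ and 86692 to 87905 in TNF- lungs. Their part in the rise of shared signalling genes was not tested.

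The immunoglobulin chains of the receptor split by class. Ighm, the IgM heavy chain, which B cells carry and plasma cells secrete, had 178760, 348410 and 38962 normalized counts in TNF+ and 4628, 5682 and 7573.5 in TNF- lungs (log2 fold change 4.98, edgeR adjusted p = 0.000979). Ighd, the IgD heavy chain of mature B cells that have not met antigen, had 1362, 1557 and 1944 in TNF+ and 1011, 1421 and 1844 in TNF- lungs and was not called (log2 fold change 0.19, edgeR adjusted p = 0.509). The light chain genes Igkc (4.55), Iglc1 (5.46), Iglc2 (3.85) and Iglc3 (4.81) were called higher. Of these, Iglc2 and Iglc3 are near-identical copies, so their separate counts are uncertain. The ratio of Ighd to Ighm counts fell from 0.219, 0.250 and 0.244 to 0.00762, 0.00447 and 0.0499, with no overlap.

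**Figure D4:**
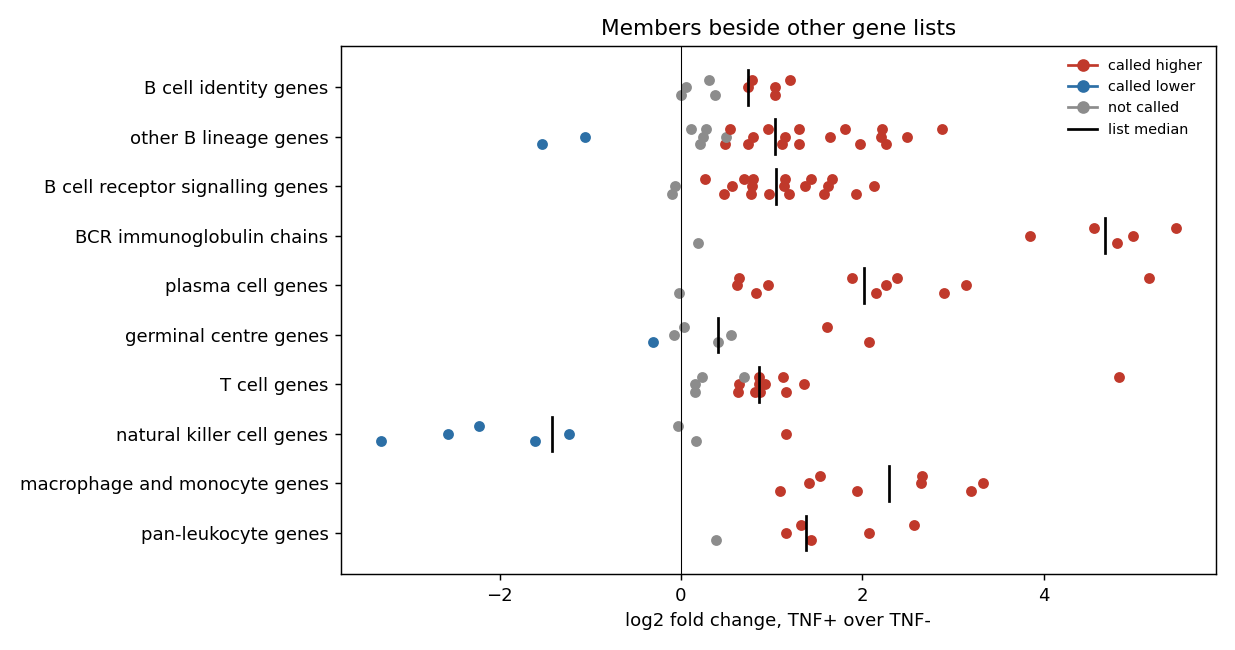
Log2 fold changes of TNF+ over TNF- lungs for the tested genes of 10 lists. Points are genes (red called higher, blue called lower, grey not called) and black lines are list medians, 0.74 for the B cell identity genes, 1.04 for other B lineage genes, 4.68 for receptor immunoglobulin chains and 2.02 for plasma cell genes.

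Of 12 plasma cell genes, 11 were called higher and Sdc1 was not called, and the median log2 fold change was 2.02. Jchain, which joins polymeric IgM and IgA, had 116170, 96163 and 54453 normalized counts in TNF+ and 783, 1263 and 5392 in TNF- lungs. Derl3 (3.14) and Mzb1 (2.90), of the secretory pathway, and Tnfrsf17 (2.38), the survival receptor BCMA, rose as well. Prdm1 (0.96), Txndc5 (0.83), Xbp1 (0.64), Creld2 (0.62) and Sdc1 (-0.02) lay within or near the range of the 9 B cell identity genes. Summed over the 12 genes, TNF+ lungs had 155050, 127000 and 79385 normalized counts and TNF- lungs 18134, 20152 and 24813. In TNF+ lungs Jchain was the largest term, with a mean of 88929. In TNF- lungs the means of Sdc1 (5143), Xbp1 (5699) and Txndc5 (4942) exceeded that of Jchain (2479). The sums thus weigh the genes differently in the 2 genotypes. TNF+ replicate 3 had the lowest sum of its group here and over the 9 B cell identity genes, and TNF- replicate 3 had the highest of its group in both. Plasma cells keep some B cell transcripts and lose others, and their part in the values of the 9 genes was not tested.

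Of 11 germinal centre genes, 7 passed the filter on low counts, of which 2 were called higher and 1 lower, near the background share. Mki67, a gene of any dividing cell, rose by a log2 fold change of 1.61 and the receptor gene Il21r by 2.07, whereas Bcl6, the transcription factor of germinal centre B cells, stood at -0.31 (edgeR adjusted p = 0.0427). The Bcl6 call was lost without TNF+ replicate 1 or 2 or TNF- replicate 1 or 2, and also with the replicate block, with scaling to total counts and with no filter on low counts.

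Chemokines that draw B cells were higher in TNF+ lungs. Cxcl13, the ligand of Cxcr5, had 19492, 23139 and 17036 normalized counts in TNF+ and 123, 154 and 299 in TNF- lungs (log2 fold change 6.69). Ccl19 rose by 5.43, Ccl20 by 2.38 and Ltb by 1.41, while Ccr7 stood at -0.63 and the survival factor gene Tnfsf13b was not called (0.19, edgeR adjusted p = 0.154). Of the 11 genes of attraction and survival, 5 were called higher and 2 lower (Ccr7 and Ltbr). Both lower calls were lost without TNF+ replicate 2, without TNF+ replicate 3, without TNF- replicate 2 and with the replicate block. Of 9 genes of lymphoid tissue stroma and vessels, 6 were called higher and 1 lower. Among them, Madcam1, an address molecule of lymphoid vessels, had 115, 324 and 231 counts in TNF+ and 0 in every TNF- lung, Fut7 rose by 1.59 and Chst4 was lower by -2.35. Glycam1 was not called (edgeR adjusted p = 0.104), with the counts of TNF- replicate 3 given above. Whether lymph node carried with the lung added to these values was not tested, and genes of thymocytes and precursor B cells (Dntt, Rag1, Rag2, Ptcra, Vpreb1, Igll1 and Arpp21) all failed the filter, with sums of 11.9 to 31.0 normalized counts in TNF+ and 16.3 to 46.8 in TNF- lungs.

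T cell and pan-leukocyte genes were mostly higher in TNF+ lungs. Of 15 T cell genes, 11 were called higher and 4 not, with a median log2 fold change of 0.86. Cd3e, a chain of the T cell receptor complex, was not called (0.23, edgeR adjusted p = 0.291). Cd4 (4.84), Cd28 (1.35) and Trac (1.16) rose the most of the list, and the T cell count dropped to 6 without TNF+ replicate 1 or 2 or TNF- replicate 1 or 2. Cd4 stood apart from the rest of the list. Its means were 10700 normalized counts in TNF+ and 374 in TNF- lungs, against 772 and 345 for Trac. The part of cells other than T cells in the Cd4 values was not tested. Of 6 pan-leukocyte genes, 5 were called higher, with Cd52 at a log2 fold change of 2.57, Cd53 at 2.07, Ptprc, the CD45 gene, at 1.43 and Laptm5 at 1.33.

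The genes outside these lists whose log2 CPM over the 6 lungs was most like the mean of the 9 were Gfer, Haao, Mrps27 and the immunoglobulin variable genes of a kappa chain and of a heavy chain, with Pearson correlations of 0.989 to 0.997 over 6 lungs among 14865 genes compared. The lungs share their libraries and the genotypes differ, so this is a description only. The log2 fold changes of these variable genes, 3.28 and 3.02, were larger than that of any of the 9 genes, as this correlation does not depend on the size of a change.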

How the data were processed

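Poly(A) RNA of whole lung from 3 TNF+ and 3 TNF- mice was sequenced as stranded single-end libraries. Per the submitters' processing notes, the authors used Trimmomatic (version 0.36), STAR (version 2.5.2b), featureCounts and build GRCm38.p5, and they deposited raw counts per gene symbol. The strand setting and gene annotation are not given in the sources used here. Antisense genes that share exon bases with Pax5 or Cd22 had at most 3 counts in a lung.

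After filterByExpr and TMM, genotype was tested by quasi-likelihood in edgeR (version 4.0.16) under R (version 4.3.3), with Benjamini-Hochberg adjustment. Standard errors are the log2 fold change over the square root of F. Alternatives were DESeq2 (version 1.42.0), limma-voom (limma version 3.58.1), other scaling, filters and dispersion, a replicate block, and left-out lungs. Programs were tested on simulated data. Levels used exon lengths and positions of GENCODE M21 (mm10), which held 47240 of the 49568 symbols. Ratios used exact permutation tests.

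The members and lists were chosen with earlier results of these data known. Named are all 9 members, preset genes of each list and the 5 most alike genes. In most lists the 3 further called genes with the largest change above a floor on mean log2 CPM are named too. Genes named besides these, with Krt4, Gm42418, Tnf and Sftpc, were chosen after values were seen. The 6 mice are different animals. No pair of replicates agreed within counting noise, so none was treated as a library deposited in duplicate (chi-square per degree of freedom 53.7 to 140). Some genes of the lists enter the counts and medians but are not reported here by name.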

Additional observations from a re-analysis of the deposited data

How the results depend on the processing

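Over 16 alternative analyses, Cd79a and Cd22 kept their calls in 16, Fcrla in 15, Ms4a1 in 14 and Cd79b in 8. Bank1 and Pax5 stayed uncalled in all 16, and so did Blk and Fcmr, whose log2 fold changes near 0 turned sign. Of the 9 genes, 4 were called with robust dispersion, as were 9089 of all genes. When the log2 fold change also had to reach 1 in size, 3 of the 9 and 4320 of all genes were called. Without both replicate 1 lungs, 2 of the 9 and 6064 of all genes were called, and Blk stood at -0.17. Fewer lungs enter that fit. Fcmr stood at 0.0136 with limma-voom and 0.0109 with the replicate block. Leaving out each lung in turn, 4 to 5 of the 9, 96 to 114 of the genes in the other lists and 7347 to 9164 of all genes were called, Fcmr ran from -0.155 to 0.069 and Blk from -0.18 to 0.21. In the same runs the ratio to Cd79a of Cd22 ran from -0.137 to 0.0835 and that of Fcrla from -0.0915 to 0.305, with both signs. The other 6 ratios kept their sign.

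Same-numbered TNF+ and TNF- mice are different animals and did not deviate together (correlations of -0.15, -0.00 and -0.24 across genes). With the replicate block 7686 genes, the same 5 of the 9 and 106 of the genes in the other lists were called. The 9 genes had 157 counts or more per lung, and depth limits the listed genes that did not pass the filter on low counts.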

Other observations

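Natural killer cell genes went the other way from the B cell identity genes. Of 8, 5 were called lower in TNF+ lungs and 1 higher. Gzma, a granule protease, was lower by a log2 fold change of -3.31, Klre1 by -2.57 and the activating receptor gene Ncr1 by -2.22 (edgeR adjusted p = 0.00229), whereas Eomes was higher by 1.16. Plasmacytoid dendritic cell genes were split, with 3 of 7 called higher (Ccr9 by 3.21 and Irf8 by 1.06 among them), 3 lower (Cox6a2 by -1.003 among them) and Siglech not called (0.47, edgeR adjusted p = 0.241). Without TNF+ replicate 1 or TNF+ replicate 3, 3 of these 7 were called in all. Among squamous epithelium and skeletal muscle genes, 3 of the 5 tested were called lower by edgeR, 0 by DESeq2 and 0 by limma-voom, and 2 without TNF- replicate 1. The sums over this list were 139050 normalized counts in TNF- replicate 1, 812 and 746 in the other TNF- lungs and 387 to 945 in TNF+ lungs, so that lung carried the list, skeletal muscle genes (Acta1 and Myh4) as well as keratins.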
